A study of Mus musculus with 9 samples.

Results

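Expression of 10 genes of forebrain projection neurons was followed through 6 libraries of the mouse cochlea. The genes were chosen by their TPM, which was far higher in 2 of the 3 libraries from base editor treated animals than in untreated libraries. They were Camk2a, Nrgn, Itpka, Chrm1, Slc30a3, Nptx1, Cck, Ddn, Neurod2 and Emx1, taken by symbol as 10 of the 25579 gene symbols of the table that holds the treated libraries. Their levels in the treated and untreated libraries are therefore a description, with no test.

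RNA came from the membranous labyrinth, the soft tissue inside the bony cochlea, of mice at postnatal day 28. The homozygous group (labelled hMPZL2Q74X/Q74X, 3 libraries) carried 2 copies of a humanized MPZL2 gene with a nonsense variant. The treated group (3 libraries) had the same genotype and was injected with AAV-ie-ABE8eWQ-SpRY:sgRNA3, whose name denotes a viral vector (AAV), an adenine base editor (ABE8e) and a single guide RNA. The injection was made at postnatal day 2 across the round window, a membrane between the middle ear and the cochlea. The wild-type group (Mpzl2 WT, 3 libraries) is held in a separate, selected table of 1410 symbols that lists 0 of the 10 genes, so their wild-type level is not analysed here. The labels call the libraries of a group biological replicates and say nothing on sex or on pooling of animals, and no group received a vector without the editor. The labels do not name the promoter of the editor.

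Projection neurons are the excitatory cells of the cerebral cortex and hippocampus that send axons to other regions. They release glutamate, and their dendritic spines hold a dense scaffold in which calcium entering through receptors acts on calmodulin and its kinase. The glutamatergic neuron of the cochlea is the spiral ganglion neuron, a sensory neuron of otic origin that does not derive from the forebrain.

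Treated libraries 1 and 2 stood apart from the rest and were nearly the same as each other. For genes at 1 to 5 TPM (transcript abundance per length, scaled so that each library has about the same sum), the median absolute log2 ratio was 0.0774 between them, against 0.589 to 0.737 between homozygous libraries and 1.24 and 1.23 between either of them and treated library 3. They were therefore counted as 1 sample through their mean, and treated library 3 was kept apart. Whether the pair came from separate animals, and whether all of its RNA came from the labelled tissue, was not tested, and this bears on every value given for it. Mitochondrially encoded genes took 10.7% to 13.6% of TPM in the homozygous libraries, 2.17% and 2.22% in treated libraries 1 and 2, and 6.16% in treated library 3. With those genes left out and the rest rescaled, the log2 differences of the 10 genes in treated libraries 1 and 2 given below kept their sign, for example 8.90 for Camk2a and 2.40 for Ddn. Cochlear markers were present in every library. Otof encodes the hair cell protein otoferlin. It was at 15.3 to 36.8 TPM in the homozygous and 52.5 to 94.3 TPM in the treated libraries. Coch, the gene of cochlin, was at 6110 to 7698 TPM in the homozygous and at 3735 TPM or more in the treated libraries. The summed level of 13 genes of supporting cells and lateral wall was 10334 to 14178 TPM in the homozygous libraries. That sum was 6475, 6298.5 and 7941 TPM in treated libraries 1, 2 and 3. In bulk tissue, fewer cells of a type and less RNA per cell cannot be told apart.

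The genes of calcium and calmodulin signalling are given first. Camk2a encodes the alpha subunit of calcium/calmodulin-dependent kinase II, the main kinase of forebrain spines. It stood at 0.471, 0.503 and 0.554 TPM in the homozygous libraries, 745 and 722 TPM in treated libraries 1 and 2, and 8.13 TPM in treated library 3. All treated libraries lay above all homozygous ones, but treated library 3 held 1.11% of the mean level of the other two. In treated libraries 1 and 2 the gene ranked 89 and 93 among the 25579 symbols by level, and its difference from the homozygous libraries was the largest of all symbols (rank 1). On the log2(TPM + 1) scale, used for every difference here and understating those of low genes, the difference was 8.93, with an SD of 0.04 between homozygous libraries (n = 3).

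Nrgn encodes neurogranin, a small protein that binds calmodulin in dendrites. Its homozygous levels were 2.99, 2.71 and 1.02 TPM, its levels in treated libraries 1 and 2 were 114 and 110.4 TPM, and treated library 3 had 2.57 TPM. Treated library 3 thus lay inside the homozygous range, with the other pair 50.01 times the homozygous mean. Itpka, which encodes an inositol trisphosphate kinase bound to the actin of spines, was at 0.621, 0 and 1.13 TPM in the homozygous libraries, at 33.2 and 32.9 TPM in treated libraries 1 and 2 and at 2.19 TPM in treated library 3. Here treated library 3 was above every homozygous library, at 6.64% of the level of the other two.

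Genes of transmission and its modulators follow. Chrm1 encodes the M1 muscarinic acetylcholine receptor. It was at 2.39, 1.98 and 1.94 TPM in the homozygous libraries, 32.3 and 32.6 TPM in treated libraries 1 and 2, and 2.58 TPM in treated library 3. Library 3 exceeded the highest homozygous library by less than the range among those libraries. Slc30a3 encodes the transporter that loads zinc into glutamatergic vesicles. It was listed at 0 in every homozygous library, at 14.4 and 14.1 TPM in treated libraries 1 and 2, and at 4.84 TPM in treated library 3. Of the 10 genes it had the highest share in treated library 3, 33.9% of the level of the other two.

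Nptx1 encodes neuronal pentraxin 1, a secreted protein that gathers AMPA receptors at synapses. It was at 1.36, 1.78 and 1.19 TPM in the homozygous libraries, 31.5 and 29.9 TPM in treated libraries 1 and 2, and 3.30 TPM in treated library 3, which again lay above all homozygous libraries. Cck encodes cholecystokinin, a peptide of gut endocrine cells that is abundant in cortical neurons. Its homozygous levels were 3.37, 0 and 5.78 TPM, and it was at 106 and 104 TPM in treated libraries 1 and 2 and listed at 0 in treated library 3. The homozygous spread of Cck, with an SD of 1.45 on the log2 scale (n = 3), was the widest of the 10 genes.

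Ddn encodes dendrin, a dendritic protein that is also made in kidney podocytes, and its pattern differed from that of the other genes. It was the only one with an appreciable level in untreated cochlea, at 76.2, 43.99 and 85.4 TPM, where the other 9 were under 6 TPM in every homozygous library and 8 were under 3 TPM. Treated libraries 1 and 2 had 399.7 and 389 TPM, 5.76 times the homozygous mean, and treated library 3 had 29.6 TPM, below all homozygous libraries. The annotation places a noncoding gene, B130046B21Rik, over Ddn on the other strand, and the sources do not say whether the authors' quantification used strand, so the level of Ddn is uncertain. Chrm1 also has an overlapping gene on the other strand (Gm22820) and carries the same uncertainty. Slc30a3 has overlapping genes there too (Dnajc5g and Gm9924). Of the 31-base words of the transcripts of the 10 genes, 3.92% for Ddn, 5.28% for Chrm1 and at most 0.79% for any other recur in transcripts of another gene. For Slc30a3 the share was 0%, and whether the overlap bears on its level was not tested.

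Both transcription factors of cortical neurons were near 0 outside treated libraries 1 and 2. Neurod2, a basic helix-loop-helix factor of maturing excitatory neurons, was at 0.229, 0 and 0 TPM in the homozygous libraries, 15.1 and 15.8 TPM in treated libraries 1 and 2 and listed at 0 in treated library 3. Emx1, a homeobox factor of the dorsal telencephalon, was at 0.314, 0.177 and 0.127 TPM in the homozygous libraries, 9.88 and 9.81 TPM in treated libraries 1 and 2 and 0.105 TPM in treated library 3. Treated library 3 was below the lowest homozygous library for Emx1 and tied with the lowest for Neurod2. An exact 0 in a table without counts can be a failed estimate.

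**Figure D1:**
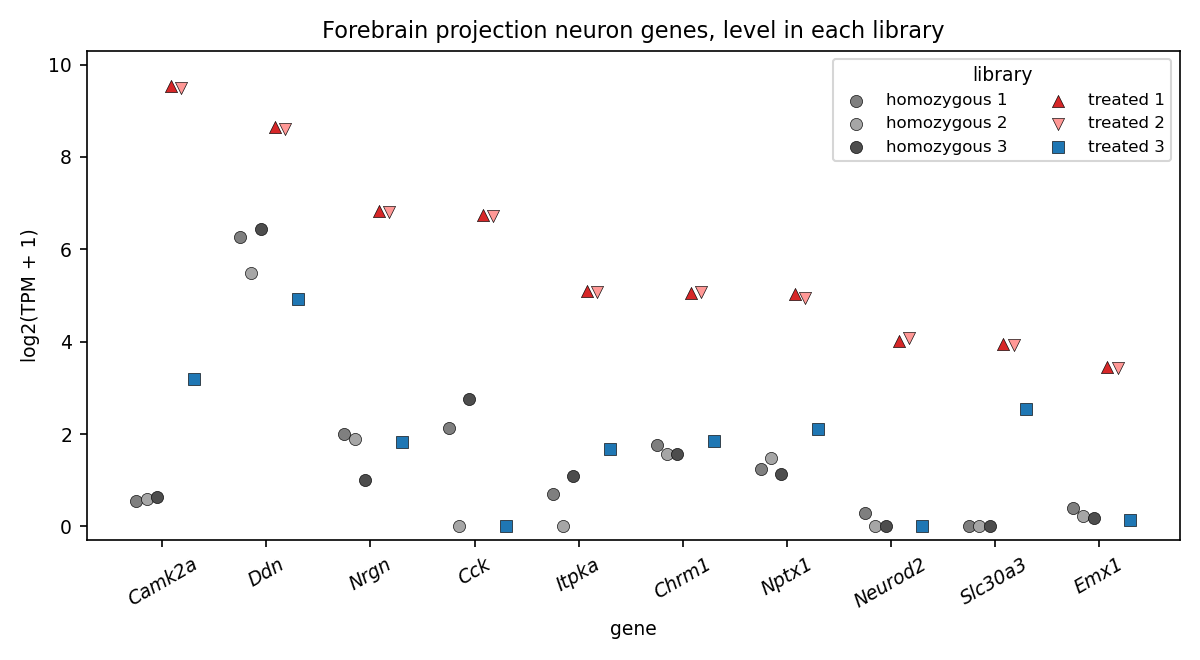
Level of each of the 10 genes as log2(TPM + 1) in the 3 homozygous (circles) and 3 treated libraries (triangles and squares), ordered by the mean TPM of treated libraries 1 and 2. Treated libraries 1 and 2 lie above every homozygous library for all 10 genes, from 9.81 TPM for Emx1 to 745 TPM for Camk2a, while treated library 3 lies among or near the homozygous libraries for most.

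The upstream sequences of 3 of the genes are shown because these genes are high in the same libraries and share a motif that Neurod2 and related factors are known to bind. They are the 250 bases before the annotated start of Neurod2 (chr11:98329646-98329895, minus strand), Cck (chr9:121495695-121495944, minus strand) and Nrgn (chr9:37552746-37552995, minus strand), 5′ to 3′, from RefSeq on build GRCm38.p6, which is not the GRCm39 build named in the submitters' processing notes. Capitals mark CAGATG, an E-box, or its reverse complement CATCTG.
Neurod2: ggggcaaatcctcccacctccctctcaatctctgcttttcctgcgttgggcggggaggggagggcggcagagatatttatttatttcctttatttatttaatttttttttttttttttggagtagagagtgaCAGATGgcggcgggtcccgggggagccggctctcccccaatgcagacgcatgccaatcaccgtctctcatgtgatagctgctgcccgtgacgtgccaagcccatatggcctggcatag
Cck: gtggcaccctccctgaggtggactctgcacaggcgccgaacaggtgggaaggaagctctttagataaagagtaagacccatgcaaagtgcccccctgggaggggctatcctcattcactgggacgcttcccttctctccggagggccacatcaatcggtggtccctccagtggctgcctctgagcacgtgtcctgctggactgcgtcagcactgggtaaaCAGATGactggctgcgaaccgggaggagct
Nrgn: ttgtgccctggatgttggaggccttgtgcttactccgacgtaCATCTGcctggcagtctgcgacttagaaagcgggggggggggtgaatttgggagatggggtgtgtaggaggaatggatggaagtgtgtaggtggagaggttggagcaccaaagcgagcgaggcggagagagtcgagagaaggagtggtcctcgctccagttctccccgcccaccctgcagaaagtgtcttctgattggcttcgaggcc
The match begins at position -118 for Neurod2, -30 for Cck and -208 for Nrgn, counted back from the start. Of the 10 genes, 6 had an entry in the promoter table, with 7 promoters in all (Slc30a3 had a pair), each 250 bases before to 50 after the start. CAGATG on either strand occurred in 3 of these 7 and in 17.2% of all 32851 promoters. TATAAA occurred in 1 of 7, the distal promoter of Slc30a3, and in 13.6% of all, and TGACGTCA, the cAMP response element, in 0 of 7 and in 1.79% of all. No match overlapped another. The promoters differed in CpG content. The ratio of observed to expected CpG was 0.90 for Emx1 and 0.82 for Itpka, with 74% and 73.7% G and C, against 0.38 for Cck, which is also the median of all promoters. A match is a description of letters and shows no binding.

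All 10 genes were higher in both of treated libraries 1 and 2 than in every homozygous library, which held for 40.3% of all symbols and 48.1% of those tested below. A log2 difference of at least 2 was likewise seen for all 10 and for 5.71% of all symbols. These counts follow from the way the genes were chosen. The median difference of the 10 was 3.94, against 0.05 over all symbols. Of the 10, 8 passed the filter used for testing (at least 1 TPM in at least 3 libraries), and 4 of these (Camk2a, Slc30a3, Itpka and Cck) did so only with the help of the treated libraries. Neurod2 and Emx1, at 1 TPM or more in 2 libraries each, did not pass. The ratio of treated library 1 to treated library 2 was between 0.956 and 1.05 for every one of the 10.

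In treated library 3 the 10 genes did not move together. Of them 5 (Camk2a, Itpka, Chrm1, Slc30a3 and Nptx1) were above every homozygous library, 2 (Emx1 and Ddn) were below every one, and 3 (Nrgn, Cck and Neurod2) overlapped. Over all symbols 34.7% were above and 29.1% below, and over the 17102 tested genes 41.4% and 32.8%. The shares of the 10 genes, 5 and 2 of 10, stood beside these without a test. The median difference was 0.20, against -0.01 over all symbols. A difference of at least 2 was seen for 2 genes, Camk2a (2.60) and Slc30a3 (2.55), and for 2.37% of all symbols and 2.91% of tested genes. As a share of the mean of treated libraries 1 and 2, treated library 3 held from 0% for Cck and Neurod2 through 1.06% for Emx1 and 2.29% for Nrgn to 10.8% for Nptx1 and 33.9% for Slc30a3. These shares include the level seen in homozygous libraries, and for Nrgn, Cck, Neurod2, Emx1 and Ddn treated library 3 was not above that level. Whether the 10 genes were raised in treated library 3 by a common proportion was not tested.

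**Figure D2:**
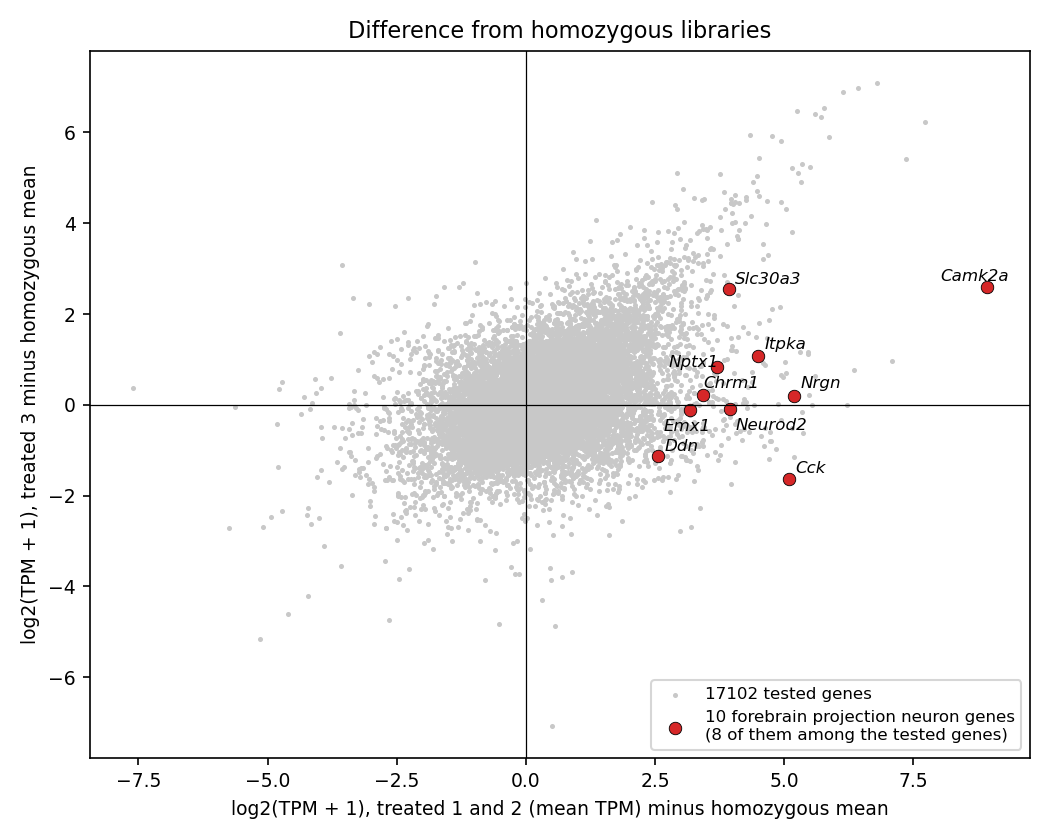
Difference of log2(TPM + 1) from the homozygous mean in treated libraries 1 and 2 (x axis) and in treated library 3 (y axis) for 17102 tested genes (grey) and the 10 forebrain genes (red). The 10 genes lie at 2.56 to 8.93 on the x axis and at -1.63 to 2.60 on the y axis.

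The levels of the 10 genes also had an order, which differed between library sets. In the homozygous libraries Ddn (68.5 ± 21.7 TPM, SD, n = 3) led, followed by Cck (3.05 ± 2.90), Nrgn (2.24 ± 1.07), Chrm1 (2.10 ± 0.25), Nptx1 (1.44 ± 0.30), Itpka (0.58 ± 0.57), Camk2a (0.51 ± 0.04), Emx1 (0.21 ± 0.10) and Neurod2 (0.08 ± 0.13), with Slc30a3 at 0. The ranges of neighbours overlapped for Cck and Nrgn, Nrgn and Chrm1, Itpka and Camk2a, Emx1 and Neurod2, and Neurod2 and Slc30a3, so those pairs do not differ beyond their spread. In treated libraries 1 and 2 the order was Camk2a, Ddn, Nrgn, Cck, Itpka, Chrm1, Nptx1, Neurod2, Slc30a3 and Emx1. Itpka, Chrm1 and Nptx1 were close there, at means of 33.05, 32.4 and 30.7 TPM. Camk2a thus went from the seventh place to the first. The summed level of the 10 genes was 88, 51.1 and 97.1 TPM in the homozygous libraries, 1500.3 and 1461 TPM in treated libraries 1 and 2 and 53.3 TPM in treated library 3. Without Camk2a and Ddn the sums were 6.6 to 11.3 TPM, 356 and 350 TPM, and 15.6 TPM.

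Same-family relatives of the 10 genes, named from a list of 25 of which 23 were in the table, show which family members shared the pattern. In the kinase family Camk2b, the other subunit known to be enriched in neurons, was at 19.7 to 27.5 TPM in the homozygous libraries, 134 and 135 TPM in treated libraries 1 and 2 and 24.1 TPM in treated library 3. It rose in treated libraries 1 and 2 (log2 difference 2.45, standard error 0.26, limma adjusted p = 0.0144). Camk2d, the subunit known from heart and other tissues, rose by 0.92 (limma adjusted p = 0.0325), and the difference of Camk2g, 0.41, did not pass (limma adjusted p = 0.323). Whether the difference of Camk2a exceeds that of its relatives was not tested, since Camk2a was chosen for it.

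Of the calmodulin-binding relatives of Nrgn, Gap43, a growth cone protein, rose from 2.21 TPM on average to 41 TPM (log2 difference 3.88, limma adjusted p = 0.0292), and Pcp4 fell by 1.19 on the log2 scale (limma adjusted p = 0.0258). Nptxr, the membrane-bound pentraxin, was at 8.08 to 11.2 TPM in the homozygous libraries, 404.5 and 392 TPM in treated libraries 1 and 2 and 21.7 TPM in treated library 3 (log2 difference 5.30 in the first pair, limma adjusted p = 0.0106). Nptx2 rose by 2.13 (limma adjusted p = 0.0427), and Cckbr, the cholecystokinin receptor of the brain, by 1.77 (limma adjusted p = 0.0307). Cckar, the receptor of the gut, was under 1 TPM in every library. Neurod6, another cortical factor, was listed at 0 in all homozygous libraries and in treated library 3 and stood at 6.25 and 6.004 TPM in treated libraries 1 and 2. Neurod1, a factor of the developing spiral ganglion, reached 1.02 TPM at most.

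The remaining relatives varied in size and direction. Emx2, a homeobox gene also used in the inner ear, had a difference of 0.46, and the kinases Itpkb and Itpkc had 0.37 and 0.87, and none of the 3 passed limma. The zinc transporters Slc30a1, Slc30a4 and Slc30a5 had differences of 0.13, -0.24 and -0.38 and did not pass, while Slc30a9 fell by 0.89 on the log2 scale (limma adjusted p = 0.0297). Among the other muscarinic receptors the differences were 1.61 for Chrm3 and -0.99 for Chrm5, which did not pass. Those of Chrm2 and Chrm4, 0.93 and 2.09, and of Crp, -0.003, belong to genes too low to be tested. Of the 17 relatives tested, 6 rose and 2 fell in treated libraries 1 and 2, where 13.1% and 4.24% of all 17102 tested genes did. Of the 6 that rose, 2 passed the filter only with the help of the treated libraries. With median-of-ratios scaling, or with mitochondrially encoded genes left out, 4 rose and 2 fell. The median difference over the 23 relatives was 0.66, against 0.05 over all symbols.

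Those calls rest on 1 treated sample, the mean of 2 near-identical libraries, whose spread is assumed to be that of the homozygous libraries. Without homozygous library 1 or 3 limma called 0 of 17102 genes, so 0 relatives and 0 genes of any list below, with 4708 and 5504 genes at an unadjusted p under 0.05. In treated library 3 alone 0 of the 17 relatives passed and 6 had an unadjusted p under 0.05, where 1.21% of all tested genes passed (1.02% higher and 0.193% lower).

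**Figure D3:**
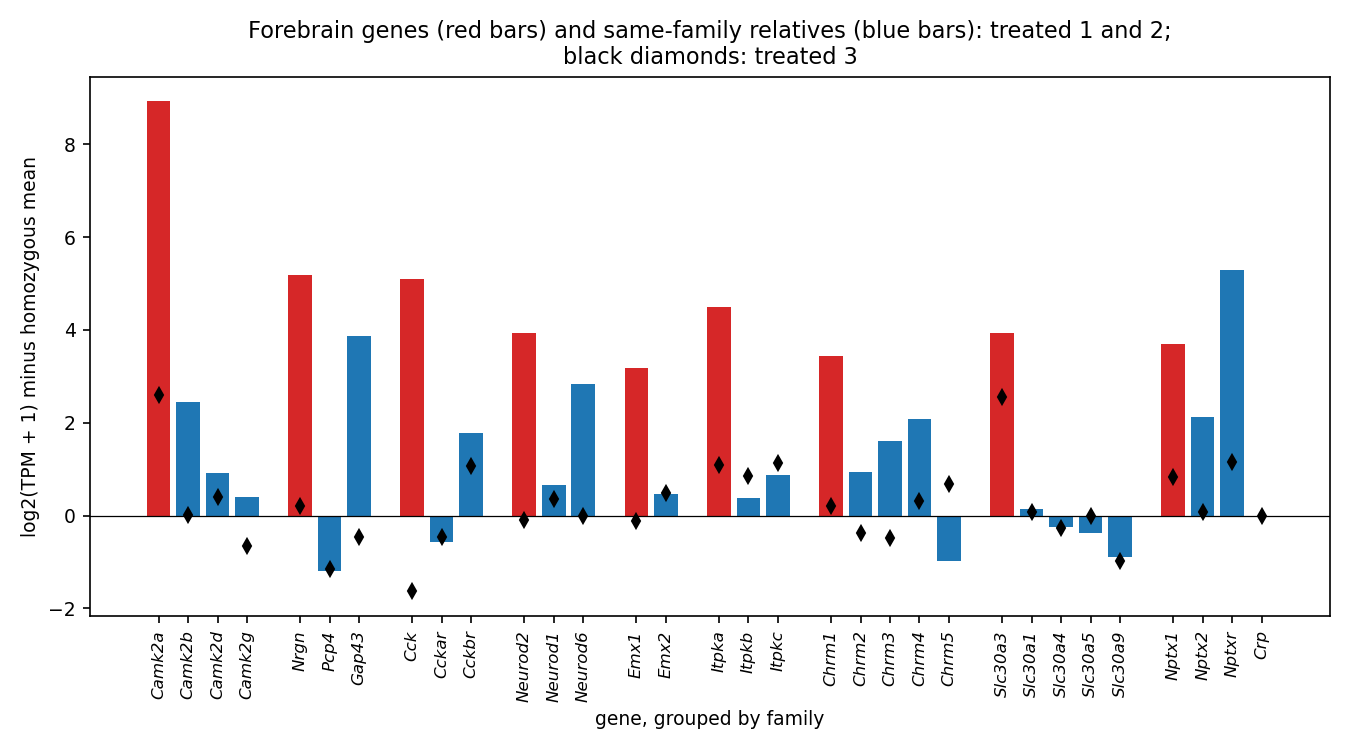
Difference of log2(TPM + 1) from the homozygous mean for 9 of the 10 genes (red bars; Ddn had no relative listed) and their same-family relatives (blue bars) in treated libraries 1 and 2, with treated library 3 as black diamonds. Nptxr (5.30), Gap43 (3.88) and Neurod6 (2.83) are the relatives with the largest differences, while the zinc transporter relatives of Slc30a3 lie between -0.89 and 0.13.

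Other marker lists were read in the same libraries to see which cell types the pattern extended to. For comparison, 40.3% of all symbols and 48.1% of tested genes were above every homozygous library in treated libraries 1 and 2, 25.2% of tested genes were below, and 13.1% rose. Of 24 other genes of cortical and hippocampal excitatory neurons, 18 were above every homozygous library in treated libraries 1 and 2, and the median difference was 2.01. Of the 19 tested, 11 rose, among them Slc17a7, the vesicular glutamate transporter that spiral ganglion neurons also use, from 140 to 183 TPM in the homozygous libraries to 459 and 461 TPM (log2 difference 1.55, limma adjusted p = 0.0198). Of the 11, 4 passed the filter on low values only with the help of the treated libraries, where they were high, so the count is not independent of the filter. Mef2c and Nrn1, the next in level, did not pass (0.20 and -0.94). The next 4 genes were chosen after their values were seen. Tbr1, a factor of cortical projection neurons, was at 27.3 and 26.4 TPM there and at 0.36 TPM or less in the other 4 libraries. Camkv and Hpca, forebrain calcium-signalling genes, had differences of 6.36 and 4.88. Fezf2, a factor of deep-layer neurons, was listed at 0 in all 3 treated libraries. In treated library 3 the list had a median difference of -0.02, and 0 of the 19 genes passed.

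The genes of the postsynaptic density, the scaffold under excitatory synapses, were mostly higher. Of 22 such genes 21 were above every homozygous library in treated libraries 1 and 2, and their median difference was 2.35. Of 21 tested, 17 rose (3 of them through the filter only with the treated libraries), among them Dlg4, which encodes PSD-95, from 108 to 116 TPM in the homozygous libraries to 565 and 563 TPM (log2 difference 2.33, limma adjusted p = 0.0107), and Shank1, another scaffold gene (2.77, limma adjusted p = 0.0251). Grin1, the shared NMDA receptor subunit, had a difference of 0.71 and did not pass (limma adjusted p = 0.0993). The partner subunit Grin2b, chosen after its values were seen, went from 0.45 to 1.03 TPM in the homozygous libraries to 98 and 149 TPM. In treated library 3 the median difference of the list was 0.01.

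Genes of inhibitory cells went both ways. Of 14 genes of forebrain GABAergic interneurons, which lie in the same region, 9 were above and 5 below every homozygous library in treated libraries 1 and 2. The 5 below included Pvalb and Reln. Gad1, which encodes a GABA-synthesizing enzyme, was at 31.4 and 30.4 TPM there, against 0.31 to 1.04 TPM in the homozygous libraries and 0.56 TPM in treated library 3. Sst, the gene of somatostatin, was at 16.5 and 16.1 TPM and listed at 0 in the other 4 libraries. Gad1 and Sst were chosen after their values were seen. Npy, a neuropeptide gene, rose (log2 difference 3.32, limma adjusted p = 0.0485), while Pvalb and Reln, with differences of -1.13 and -0.18, did not pass. Of the 6 tested genes of this list 2 rose (1 with median-of-ratios scaling), both of which passed the filter only with the help of the treated libraries, and the list's part in the levels of the 10 genes was not tested. Its median difference was 1.89 over all 14 genes and -0.66 over the 6 tested, so the sign depends on the genes that were too low to test.

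Lists of other brain regions came next. Of their tested genes, 2 hippocampal, 1 striatal and 1 cerebellar passed the filter on low values only with the help of the treated libraries. A gene that rose in each of the hippocampal and striatal lists is among them, so the counts given below are not independent of the filter. The median difference in treated libraries 1 and 2 was 0.29 for 10 genes of hippocampal subfields, 0.82 for 10 striatal, 0.76 for 8 thalamic, 0.37 for 12 cerebellar and -0.10 for 12 hindbrain genes. In treated library 3 the medians of these lists were -0.09, 0.56, 0.71, 0.04 and -0.10. Among their tested genes 2 of 9, 4 of 8, 3 of 7, 2 of 10 and 0 of 1 rose, where 13.1% of all tested genes did. Pde10a and Gng7, signalling genes of striatal neurons, rose by 2.16 and 1.61 (limma adjusted p = 0.0461 and 0.0283), whereas Ppp1r1b, the striatal gene with the highest level, had a difference of 0.001 and was at 597 to 2043 TPM in untreated cochlea. Of the hindbrain genes 10 of 12 were under 1 TPM in all 6 libraries, and Slc17a6, a second vesicular glutamate transporter, fell by 1.93 on the log2 scale (limma adjusted p = 0.0447). The thalamic genes Tcf7l2 and Prkcd rose by 1.5 and 1.14 (limma adjusted p = 0.017 and 0.0483), and Prkcd was also high in treated library 3, at 187 TPM against 59.8 to 89.3 TPM in the homozygous libraries.

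Spiral ganglion genes and genes shared by most neurons were read next. Of 14 spiral ganglion genes 4 were above and 8 below every homozygous library in treated libraries 1 and 2, with a median difference of -0.68. Nefl and Nefm, neurofilament genes, and Calb2, the gene of calretinin, had differences of -1.30, -1.13 and -1.44, which did not pass (limma adjusted p = 0.0672, 0.113 and 0.0738). Of the 14, 2 rose, Slc17a7 and the neurotrophin receptor gene Ntrk2 (1.05), and 1 fell, Pou4f1 (-2.68), a factor of sensory neurons. Without homozygous library 2, 7 of the 14 fell. Of 15 pan-neuronal genes 4 were above every homozygous library, and the median difference was 0.15. Of the 15, 1 passed the filter on low values only with the help of the treated libraries, and it was among those that rose. Snap25 and Map2 had differences of 0.33 and 0.43, which did not pass. Syt1 (4.60, limma adjusted p = 0.0108) and Gap43 were the 2 that rose. Ntrk2, Pou4f1 and Syt1 were chosen after their values were seen. In treated library 3 the medians were -1.04 and -0.89. Below every homozygous library in that library were 10 of 14 and 10 of 15, against 32.8% of tested genes.

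Glial lists differed among themselves. Of 10 astrocyte genes 4 rose in treated libraries 1 and 2, led by Slc1a2, the forebrain glutamate transporter, which went from 123 to 137 TPM in the homozygous libraries to 1229 and 1236 TPM (log2 difference 3.21, limma adjusted p = 0.0106). S100b and Gjb6, which cochlear cells also express, did not pass (-0.99 and -1.05). Of 13 tested oligodendrocyte genes 0 rose and 2 fell, Mog (-2.65) and Cldn11 (-1.30), with a median of -1.14 over the 14 of the list. Mbp and Mal did not pass (-0.59 and -1.18). The summed level of the list was 4975, 2307 and 5958 TPM in the homozygous libraries against 2130, 2045 and 1953 TPM in the treated libraries. The sum was high in homozygous libraries 1 and 3, while homozygous library 2 was within 1.5-fold of the treated libraries. Without homozygous library 2, 9 of the 13 fell. Some of these genes also serve the myelin of peripheral nerve. Of 9 microglial genes 2 rose, Cx3cr1 (1.14) and Sall1 (1.54), and Tmem119 had 0.76 and did not pass. Of 8 choroid plexus genes 3 were above every homozygous library in treated libraries 1 and 2, and the median difference was -0.04. Over the 6 tested genes of that list the median was 1.1. Of those 6, Ttr, the gene of transthyretin, Kcnj13 and Otx2 rose by 2.15, 2.48 and 2.57. Clic6, Enpp2 and Kl had differences of 0.04, -0.12 and -0.89. Among cochlear lists, the 10 hair cell genes had a median difference of 1.55, with 8 above every homozygous library. Of these 10, 2 rose and 1 fell, and 1 of 13 genes of supporting cells and lateral wall rose and 1 fell. Mog, Cldn11 and Sall1 were chosen after their values were seen.

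**Figure D4:**
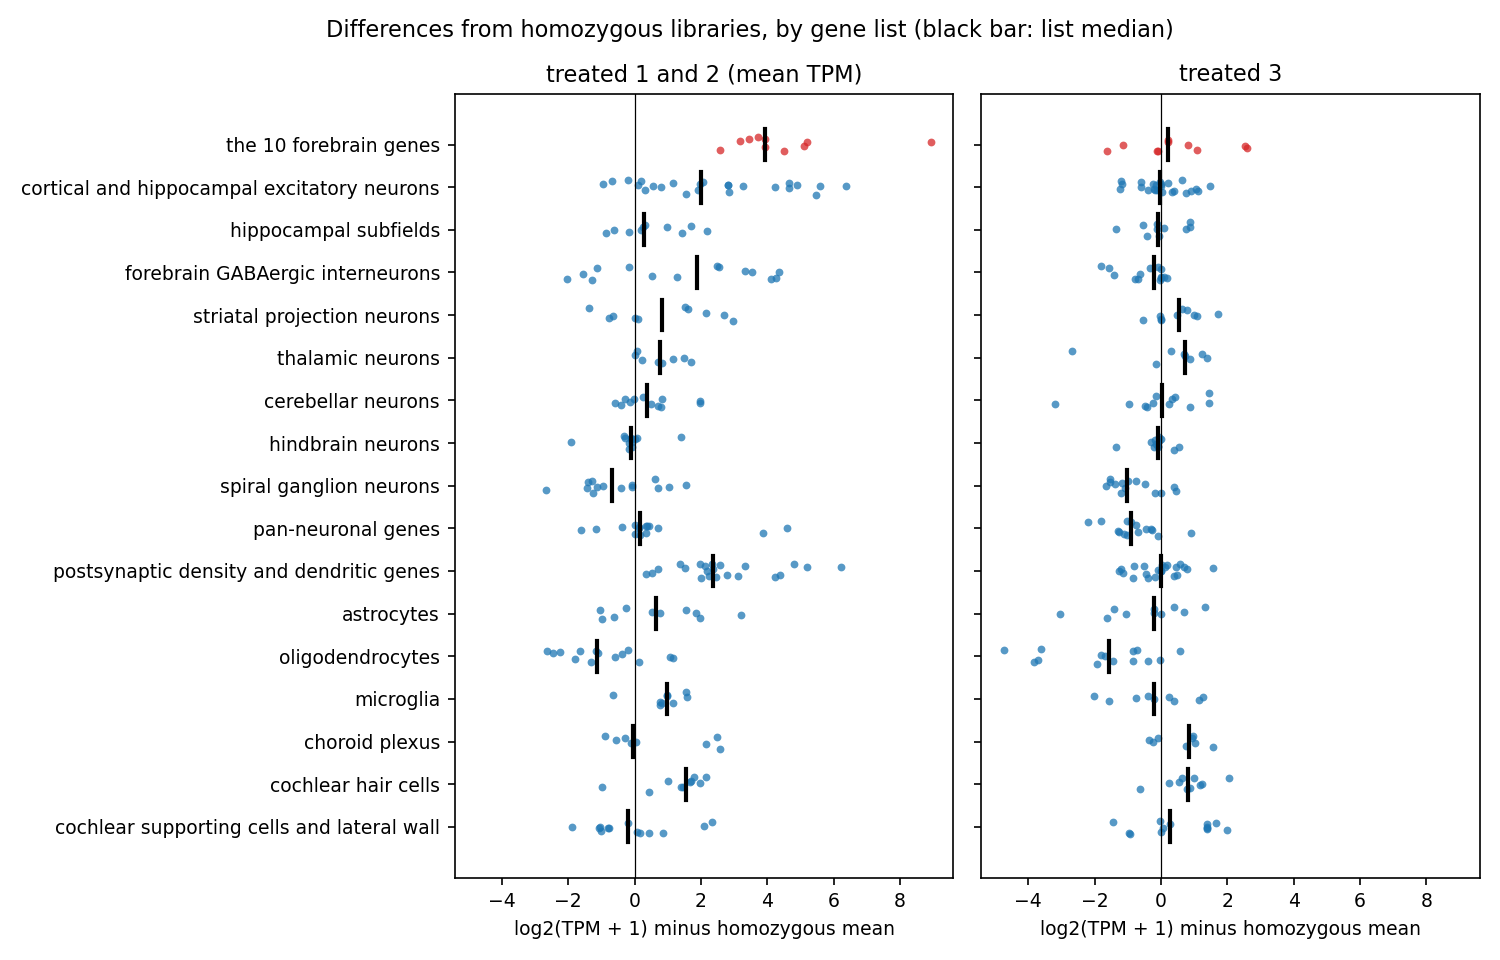
Difference of log2(TPM + 1) from the homozygous mean for each gene of the marker lists (blue) and the 10 forebrain genes (red) in treated libraries 1 and 2 (left) and treated library 3 (right), with black bars at list medians. On the left the medians of postsynaptic genes (2.35), cortical and hippocampal excitatory neurons (2.01) and interneurons (1.89) lie nearest that of the 10 genes, followed by hair cells (1.55), and on the right those 3 lists lie between -0.20 and 0.01.

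With treated libraries 1 and 2 as 1 sample and treated library 3 as another, limma called 754 of 17102 genes, 4.41% (3.44% higher and 0.965% lower). Of the excitatory neuron, postsynaptic and interneuron lists 0 genes passed in that fit. An unadjusted p under 0.05 was seen for 6 of 19, 5 of 21 and 3 of 6 tested genes. Of all 17102 tested genes, 4574 had such a p. In the same fit 2 spiral ganglion genes fell (Nefl and Nefh, limma adjusted p = 0.0464 and 0.049). So did 2 pan-neuronal genes (Elavl4 and Vsnl1) and 1 oligodendrocyte gene (Mog). Nefh, Elavl4 and Vsnl1 were chosen after their values were seen. In contrast, 1 thalamic gene (Prkcd), 1 microglial gene (Cx3cr1) and 1 gene of supporting cells and lateral wall rose, and 1 of the last list fell. Of the relatives 0 rose and 2 fell, Pcp4 and Slc30a9 (limma adjusted p = 0.0299 and 0.0328). The fit of treated libraries 1 and 2 alone called 17.4% of genes.

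Across the 6 libraries, each of the 10 genes correlated with the mean log2 level of the other 9 at a Pearson r of 0.881 (Slc30a3) to 0.998 (Chrm1). Among the 15464 other symbols with at least 5 TPM in some library, 299 (1.93%) had an r above 0.99 with the mean of the 10. The 10 genes were chosen for their high levels in treated libraries 1 and 2, so a high r among them follows from the choice. The points share libraries, and 2 of the 6 are near-identical, so r is a description here. The 10 most alike were Fbxl16, Dlgap3, Smarca1, Cnih3, Agap2, Ankrd34a, Gad2, Sh3kbp1, Bcor and Adgrb2, with r from 0.999 to 1.00. They include Dlgap3, a postsynaptic scaffold gene at 3.42 to 4.35 TPM in the homozygous libraries, 102 and 101 TPM in treated libraries 1 and 2 and 5.99 TPM in treated library 3. Cnih3, which encodes an AMPA receptor auxiliary protein, was at 0.119 to 0.409, 28.5 and 28.02, and 0.745 TPM. Gad2, which encodes the second GABA-synthesizing enzyme, was at 0.008 to 0.203, 12.2 and 11.7, and 0.28 TPM. Smarca1 and Bcor, chromatin genes expressed in many tissues, had the same shape at a smaller size, with differences of 1.04 and 1.48.

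The comparison of homozygous with wild-type libraries is the one that did not enter the choice of the 10 genes, and it shares the homozygous libraries with the comparison above. Its table is a selection of rows, in which limma called 51.3% of 1348 genes (17.9% higher and 33.5% lower). Of the relatives, Camk2b and Nptx2 were listed there and both fell in homozygous libraries. Camk2b was at 30, 31 and 29.9 TPM in WT and at 22.3, 15.8 and 25.2 TPM in homozygous libraries (log2 difference -0.52, limma adjusted p = 0.0496). Nptx2 was at 6.35, 6.39 and 5.62 TPM in WT and at 3.38, 2.16 and 3.96 TPM in homozygous libraries (-0.80, limma adjusted p = 0.0382). Overlap of the groups was not counted over the other listed genes, so the levels of these 2 genes are a description. Of 7 postsynaptic genes listed, 4 fell and 0 rose. Among those 4 were Dlgap3 (-1.02) and, chosen after their values were seen, Arc (-0.93) and Camk4 (-0.69). These genes were in the table by the authors' choice, which is not independent evidence of direction. The median difference of all 1348 genes was -0.36. Of the 2 relatives 1 fell with median-of-ratios scaling. When homozygous library 1 or 2 or any WT library was left out, 0 passed, with 1 or 2 at an unadjusted p under 0.05. In those fits 657 to 852 of the 1348 genes had an unadjusted p under 0.05.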

How the data were processed

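The deposited values are TPM. Per the submitters' processing notes the authors used kallisto 0.51.0 and DESeq with build GRCm39. Libraries were stranded total RNA, per the labels' protocols. TPM keeps no depth, so no interval is given. Columns summed to 995747 to 996703 TPM in the table used here. The genes and lists were chosen with earlier results of these data known. Repeated symbols were summed (25606 rows to 25579 symbols). Two-sided limma tests (version 3.58.1, R 4.3.3, intensity trend) used log2(TPM + 1) of genes reaching 1 TPM in 3 or more libraries. P-values were adjusted by Benjamini-Hochberg across every tested gene, with a threshold of 0.05. One fit held the homozygous libraries, the mean of treated libraries 1 and 2, and treated library 3 as 3 groups. Another pooled the treated samples. P-values measure only the spread between these libraries. Named list genes were the 3 tested with the highest mean TPM, all relatives, and the 10 symbols most correlated with the mean of the 10 genes. A few genes that the rule names are not reported here. Scripts were tested on simulated data. Transcript words and overlaps came from GENCODE M21.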

Additional observations from a re-analysis of the deposited data

How the results depend on the processing

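The difference of each of the 10 genes in treated libraries 1 and 2 kept its sign under all 7 alternatives run (pseudocounts 0.1 and 0.5, median-of-ratios scaling, rescaling without mitochondrially encoded genes, and each homozygous library left out). With a pseudocount of 0.1 it was 7.17 for Slc30a3, 6.71 for Neurod2 and 10.2 for Camk2a, and over the 7 alternatives that of Ddn was 2.27 to 2.75. In treated library 3 only Nrgn changed sign, with a range of -0.11 to 0.38. The number of genes called moved more. For all treated samples it was 754, and 134 with no filter on low values, 222 without treated replicates 1 and 2 (an alternative chosen after seeing the data), 3563 with 3 separate treated samples, and 63 to 2984 with 1 replicate left out. For treated libraries 1 and 2 it was 2969, and 0 to 2947 with 1 homozygous replicate left out. For treated library 3 it was 207, and 21 and 111 with pseudocounts of 0.1 and 0.5, 498 with no filter, 133 with median-of-ratios scaling, and 0 (limma, with 2929 to 5887 genes at an unadjusted p under 0.05) without any 1 homozygous replicate. For homozygous against WT it was 692, and 103 to 611 with 1 replicate left out. With the replicate number as a block the counts were 1485 for treated against homozygous and 343 for homozygous against WT. Same-numbered libraries did not deviate together (correlations of -0.146 to 0.03 and of -0.14 to 0.049). With 3 libraries in a group, and treated libraries 1 and 2 near-identical, these correlations cannot settle whether the numbers pair them. Median-of-ratios scaling moved the median difference of tested genes in treated libraries 1 and 2 from 0.287 to 0.017 and the split from 2244 higher and 725 lower to 1310 and 1130. Rescaling without mitochondrially encoded genes gave 1623 and 873. For all treated samples median-of-ratios scaling moved the split from 589 and 165 to 402 and 231, and for homozygous against WT from 241 and 451 to 465 and 216. The table with WT holds no mitochondrially encoded gene, so that rescaling was not run there. Depth is unknown, and it limits low values such as those of Emx1 and Neurod2.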

Other observations

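For some genes the TPM of a homozygous library depended on which of the tables listed it. Of 1349 symbols found in both tables with a mean of at least 1 TPM in either, 1147 agreed within 1.5-fold in the homozygous mean and 63 differed by more than 4-fold. Dlx1, an interneuron factor chosen here after its values were seen, had homozygous levels of 4.19, 3.33 and 3.67 TPM in the table with WT and of 0.06, 0 and 0 TPM in the table with treated libraries, where treated libraries 1 and 2 had 19.7 and 19.8 TPM. Hpca, by contrast, was at 1.11, 0.66 and 2.46 TPM and at 1.06, 1.15 and 2.28 TPM. The related factors Dlx2, Dlx5 and Dlx6, also chosen after their values were seen, were listed at 0 in treated libraries 1 and 2 and at 0.38 to 7.62 TPM in the homozygous libraries.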
